A study of Gallus gallus with 15 samples.

Results

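Liver RNA of the Hoengseong Yakdak (Ya), a Korean native chicken, was set against that of 4 other breeds for 8 genes that mark it. SIDT1, ATRNL1, DBNDD2 and BDKRB1 were higher in Ya, and SLC7A10, ASPA, GVINP1 and CORO2A were lower. They are 8 of the 11528 genes that could be named among 18308 array features. The names were listed for their levels in Ya in these same birds, so every Ya difference in them is a description and carries no test. Each of the 8 genes had exactly 1 feature with a single gene symbol.

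Livers came from 13-week-old males, 3 birds in each of 5 breeds. The native breeds were Hoengseong Yakdak, Yeonsan Ogye (Og), Hyunin Black (Bl) and Hwangbong (Hw), and the control breed was White Leghorn (WL), a layer kept worldwide. Eggs came from local farms, and the chicks were hatched, fed without restriction and kept on 1 university farm, with no experimental treatment in any group. Each bird had 1 Affymetrix chicken gene array, and values are log2 intensities after normalization, so a difference of 1 is a doubling of signal. The kinship of the birds and the farm behind each egg are not given in the labels, so breed and egg source cannot be told apart.

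The 8 genes do not belong to a single pathway. SIDT1 is related to the channel that imports double-stranded RNA in the nematode Caenorhabditis elegans, SLC7A10 carries small neutral amino acids such as serine, and ASPA splits N-acetylaspartate into acetate and aspartate. BDKRB1 is a receptor for kinins, the short peptides released from kininogen, a plasma protein made by the liver. ATRNL1 is a membrane protein related to attractin, DBNDD2 shares a domain with dysbindin, GVINP1 is named after a family of very large interferon-induced GTPases, and CORO2A is an actin-binding coronin. In the RefSeq chicken assembly GRCg7b the 8 genes lie on 8 different chromosomes (1, 3, 5, 6, 11, 19, 20 and Z).

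Median log2 values of the 15 arrays lay between 6.12 and 6.20, and arrays correlated pairwise at 0.977 to 0.991 over all features. Hepatocyte markers such as ALB and APOA1 had mean log2 levels of 12.15 to 12.27 in Ya birds and 12.15 to 12.29 in the other 12, and 0 of 16 passed the test in Ya. Ya 1 and Ya 2 stood apart in probes of mitochondrial transcripts. In 6 of 16 features of COX3, ND4L and ND6, both lay above every bird of the other breeds, and Ya 3 lay above all 12 in 0 of the 16. The widest such gap was in a COX3 feature that read 11.77 in Ya 1, 12.97 in Ya 2 and 6.82 in Ya 3, against 6.70 to 7.53 elsewhere. The part of this in the results was not tested, so each Ya difference was also computed with Ya 3 as the sole Ya bird.

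All 3 Ya birds lay outside all 12 other birds in 8 of the 8 genes, an arrangement that 2.24% of all features showed. Of these, 4 lay above the others, as 1.17% of features did, and 4 below, as 1.07% did. That count follows from how the genes were listed and is not a result about them. With Ya 3 as the sole Ya bird, the differences from the mean of the other breeds were 2.42 for SIDT1, 2.60 for ATRNL1, 1.25 for DBNDD2 and 3.32 for BDKRB1. They were -1.55 for SLC7A10, -1.76 for ASPA, -1.47 for GVINP1 and -1.52 for CORO2A. No detection calls were used here, so the lowest levels are not shown to lie above background.

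**Figure D1:**
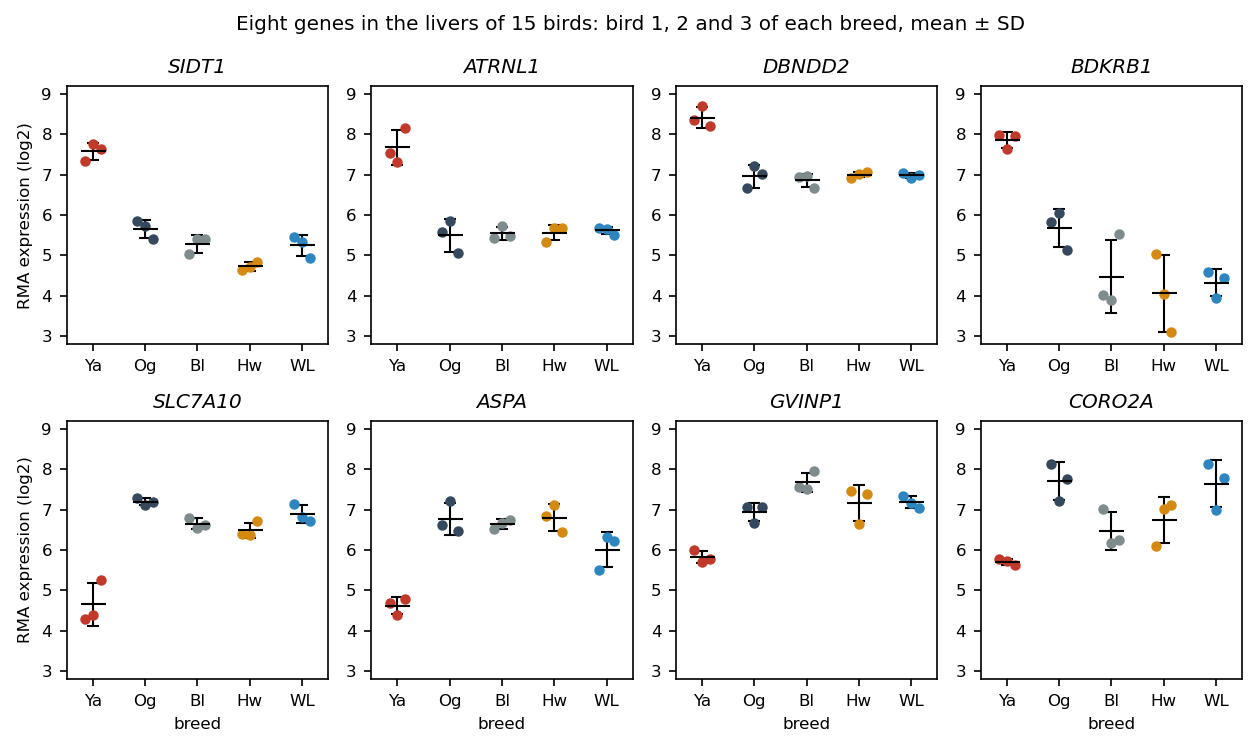
Log2 expression (vertical axis) of each of the 8 genes in every bird, by breed; points are birds, horizontal marks are breed means and bars are SD. The 3 Ya birds lie above all 12 others for SIDT1, ATRNL1, DBNDD2 and BDKRB1, and below all 12 for SLC7A10, ASPA, GVINP1 and CORO2A.

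SIDT1, a transmembrane protein of the SID-1 family, read 7.35, 7.76 and 7.65 in the 3 Ya birds. It read 5.85, 5.73 and 5.41 in Og birds and 5.03, 5.41 and 5.41 in Bl birds. Hw birds read 4.63, 4.72 and 4.84, and WL birds 5.46, 5.34 and 4.95. The Ya birds formed a tight group far above every other bird, and the Hw birds were the lowest and apart from all the rest. The mean was 7.59 ± 0.21 in Ya (SD, n = 3) against 5.23 for the mean of the other 4 breeds, a difference of 2.36 ± 0.13 (SE) or 5.13-fold in signal. The lowest Ya bird exceeded the highest other bird, Og 1, by 1.51. Neighbouring breeds in the order Og, Bl and WL overlapped bird by bird.

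ATRNL1 is a single-span membrane protein whose relative attractin acts in coat colour and energy balance in mice. Its log2 levels were 7.55, 7.33 and 8.16 in Ya birds. Levels were 5.57, 5.86 and 5.06 in Og birds and 5.44, 5.74 and 5.48 in Bl birds. They were 5.34, 5.67 and 5.69 in Hw birds and 5.69, 5.65 and 5.52 in WL birds. Ya 3 was the highest bird, and the other 4 breeds overlapped one another throughout. The mean of 7.68 ± 0.43 in Ya stood 2.12 ± 0.17 above the mean of the others, 5.56. The means of those 4 breeds spanned only 0.12, so the difference from Ya was nearly the same whichever breed it was set against, between 2.06 against WL and 2.18 against Og.

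DBNDD2, whose human protein binds and inhibits casein kinase 1, read 8.36, 8.70 and 8.20 in Ya birds. Og birds read 6.66, 7.23 and 7.01, and Bl birds 6.94, 6.98 and 6.67. Hw birds read 6.93, 7.03 and 7.06, and WL birds 7.03, 6.91 and 7.0. As with ATRNL1, the means of the other breeds lay close together: they spanned 0.14, and each breed overlapped its neighbour in the order. Ya averaged 8.42 ± 0.25 against 6.95 for the other breeds, a difference of 1.46 ± 0.12, or 2.76-fold.

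BDKRB1, the kinin receptor that mammals induce in injured or inflamed tissue, had log2 levels of 7.98, 7.63 and 7.96 in Ya birds. Og birds had 5.83, 6.05 and 5.15, and Bl birds 4.01, 3.89 and 5.53. Hw birds had 5.03, 4.05 and 3.12, and WL birds 4.59, 3.94 and 4.45. Ya birds agreed to within a narrow band while birds of the other breeds scattered widely at low levels, with Hw 3 the lowest. The difference of 3.22 ± 0.36 between the Ya mean of 7.86 ± 0.20 and the mean of the others, 4.64, was the widest of the 8 genes, at 9.32-fold. Its within-breed SD of 0.652 was larger than that of 98.7% of features, and the Ya excess ran between 2.18 ± 0.46 over Og and 3.79 ± 0.46 over Hw.

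SLC7A10, the transporter Asc-1, which moves glycine, alanine and both forms of serine in mammals, read 4.29, 4.39 and 5.26 in Ya birds. Og birds read 7.29, 7.11 and 7.18, and Bl birds 6.80, 6.55 and 6.61. Hw birds read 6.39, 6.38 and 6.71, and WL birds 7.15, 6.82 and 6.72. Every Ya bird was well below the rest, and Ya 3 stood closest to them. Ya averaged 4.65 ± 0.53 against 6.81 for the other breeds, a difference of -2.16 ± 0.16 or 4.47-fold in signal. Og was the highest breed, and Og, WL, Bl and Hw each overlapped the next in the order.

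ASPA, aspartoacylase, whose loss causes Canavan disease in humans, had levels of 4.69, 4.38 and 4.79 in Ya birds. Levels were 6.62, 7.21 and 6.48 in Og birds and 6.51, 6.67 and 6.75 in Bl birds. They were 6.85, 7.10 and 6.45 in Hw birds and 5.50, 6.31 and 6.22 in WL birds. Ya was lowest, WL was next, and the WL birds lay below those of Og, Bl and Hw without overlap. The mean was 4.62 ± 0.22 in Ya and 6.56 for the other breeds, a difference of -1.94 ± 0.19. Against WL alone the difference was -1.39 ± 0.24, and against Hw it was -2.18 ± 0.24.

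GVINP1 carries the name of a human pseudogene of the very large interferon-induced GTPases. It read 6.01, 5.71 and 5.77 in Ya birds. Og birds read 7.07, 6.68 and 7.07, and Bl birds 7.57, 7.51 and 7.95. Hw birds read 7.46, 6.64 and 7.39, and WL birds 7.34, 7.17 and 7.05. Ya birds were lowest and Bl birds highest, with WL, Hw and Og overlapping between them. The Ya mean of 5.83 ± 0.16 stood against 7.24 for the mean of the others, a difference of -1.41 ± 0.16, which was -1.85 ± 0.20 against Bl and -1.11 ± 0.20 against Og.

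CORO2A, which binds actin and in mammals is also a component of the NCoR corepressor complex, read 5.76, 5.73 and 5.62 in Ya birds. Og birds read 8.14, 7.22 and 7.77, and Bl birds 7.01, 6.16 and 6.24. Hw birds read 6.09, 7.01 and 7.13, and WL birds 8.14, 7.0 and 7.79. Ya birds agreed to within 0.14, whereas Og and WL birds were high and Bl and Hw birds reached down almost to Ya. Ya averaged 5.71 ± 0.07 against 7.14 for the others, a difference of -1.44 ± 0.26. The gap between the highest Ya bird and the nearest other bird, Hw 1, was 0.33, the narrowest of the 8 genes. The difference was -2.0 ± 0.33 against Og and -1.94 ± 0.33 against WL, but -0.77 ± 0.33 against Bl and -1.04 ± 0.33 against Hw.

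**Figure D2:**
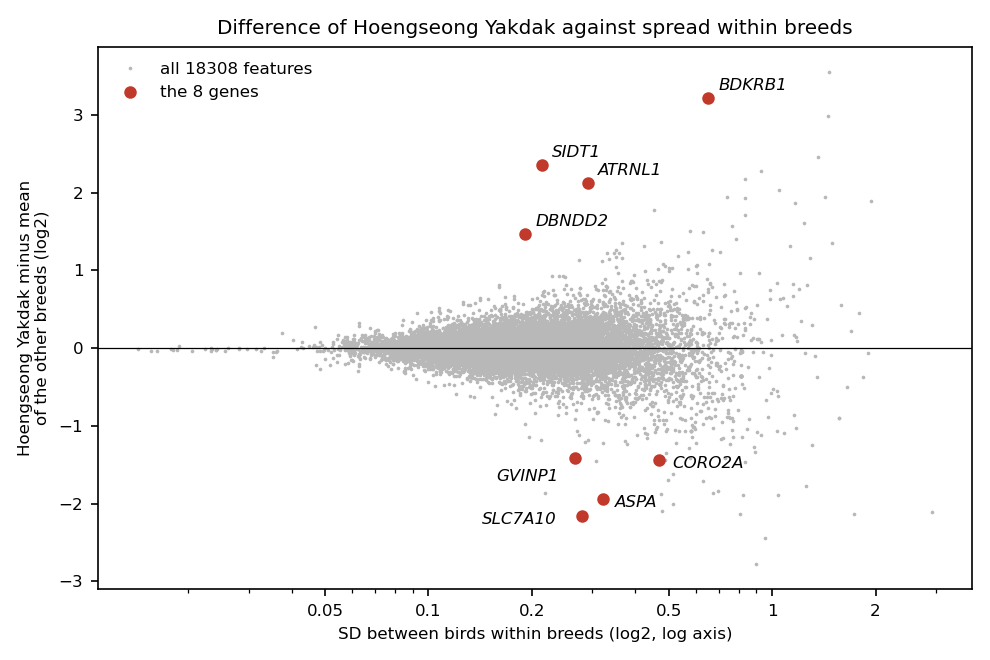
Difference of Ya from the mean of the other 4 breeds (vertical axis, log2) against the SD within breeds (horizontal axis, log2) for the 8 genes over all 18308 features. BDKRB1 and CORO2A combine their differences with within-breed SDs larger than those of 98.7% and 96.2% of features, and DBNDD2 has the lowest SD of the 8, at 0.191.

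The genes differed in how far breed separation exceeded the scatter of birds. Within-breed SDs were 0.191 for DBNDD2 and 0.213 for SIDT1, and between 0.267 and 0.321 for GVINP1, SLC7A10, ATRNL1 and ASPA. They were 0.470 for CORO2A and 0.652 for BDKRB1. A rule that asked each feature to pass limma's test (adjusted p under 0.05 over all features) for Ya minus each of the 4 other breeds, and minus their mean, took 9 features, 0.0492% of the total. The 6 members SIDT1, ATRNL1, DBNDD2, SLC7A10, ASPA and GVINP1 were among these 9, which again describes how they were listed. BDKRB1 missed the rule against Og, the breed nearest to Ya in its level, and CORO2A missed it against Bl and Hw. The single comparisons passed in 0.317% of features against Og, 0.295% against Bl, 1.46% against Hw and 0.552% against WL. The other 3 features were 2 without a gene symbol and SPIA5, which read 8.59 to 9.27 in Ya birds against 9.52 to 9.87 in the others (difference -0.78 ± 0.11). All 3 features that passed this rule upward in Ya, 0.0164% of the total, were members.

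Among 245 named genes in which the Ya birds did not overlap the others, BDKRB1, SIDT1, ATRNL1, SLC7A10, DBNDD2, ASPA and GVINP1 had the 7 widest gaps, in that order. The next was GM2A, the activator of ganglioside breakdown, with a gap of 0.49 and a difference of -1.18. ACER2, a ceramidase, followed with a gap of 0.45 and a difference of 0.92, and CORO2A ranked 13. These ranks describe where the listed genes stand and give no support for the list.

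Differences among WL, Og, Bl and Hw were examined with limma's F test across those 4 breeds. The genes were listed for Ya against each of these breeds, so the same birds and the same residual variance entered the list, and the test is not independent of it. The test passed for 132 features, 0.721% of all, and for 0 of the 8 genes. At an unadjusted p under 0.05 it took 6 of the 8, against 13.8% of all features. SIDT1 came nearest (F = 10.7, limma adjusted p = 0.0631), followed by CORO2A (F = 7.05, adjusted p = 0.137). The SIDT1 test passed with array weights (adjusted p = 0.0432) and with the dimmest features left out (0.0474). ATRNL1 (F = 0.102, adjusted p = 0.986) and DBNDD2 (F = 0.337, adjusted p = 0.927) were at the other end, their breed means lying within 0.12 and 0.14 of each other.

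The 6 pairs of breeds without Ya gave 48 differences for the 8 genes, of which 1 passed and 20 had an unadjusted p under 0.05. The 6 pairs of a gene share 4 breed means, so these differences are not separate from one another. SIDT1 averaged 5.66 ± 0.23 in Og livers and 4.73 ± 0.10 in Hw livers, a difference of 0.93 ± 0.17 (limma adjusted p = 0.0344), with all 3 Og birds above all 3 Hw birds. Over all features, 0.317% passed for Og minus Hw, 0.371% for Bl minus Hw, 0.579% for Hw minus WL, 0.191% for Og minus WL, 0.164% for Bl minus WL and 0.0492% for Og minus Bl, and 8.05% to 12.9% had an unadjusted p under 0.05. The call was not stable: it was lost without Ya 3, Og 1, Og 2 or any Hw bird, with limma adjusted p up to 0.133. The difference itself stayed between 0.84 and 1.06 in the fits without 1 array. Without Ya 1 and Ya 2 together it was 0.93. Several differences in other genes were of comparable size with larger errors. BDKRB1 was 1.61 ± 0.46 higher in Og than in Hw (adjusted p = 0.175), and CORO2A was 1.24 ± 0.33 higher in Og than in Bl (adjusted p = 0.264). ASPA averaged 0.76 ± 0.24 higher in Og than in WL (adjusted p = 0.306), 0.63 ± 0.24 higher in Bl than in WL (adjusted p = 0.312) and 0.79 ± 0.24 higher in Hw than in WL (adjusted p = 0.159). These ASPA differences share the WL mean, in which WL 1 read 5.50 and the other WL birds 6.31 and 6.22. The F of ASPA was 4.99, and 2.33 without WL 1. None of these 5 differences passed, which does not show that the breeds were alike.

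Within breeds, the 8 genes were not found to vary together from bird to bird. Deviations of the 15 birds from their breed means were correlated for the 28 gene pairs, and p came from all 7776 rearrangements of birds within breeds (exact, two-sided, adjusted over the 28 pairs). Of the 28 pairs, 0 passed and 0 had an unadjusted p under 0.05, by Pearson's r and by Spearman's rho alike. The median r was -0.06, and 11 pairs were above 0. Pairs that lay on the same side in Ya had a median r of -0.04 over 12 pairs, and pairs on opposite sides -0.08 over 16.

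The pair furthest below 0 was ASPA and CORO2A, at r = -0.61 (exact permutation p = 0.0802, adjusted p = 0.671) and rho = -0.54 (exact permutation p = 0.103). Without Hw 3 and WL 1, the birds farthest from the median of ASPA, r was -0.40. The pair furthest above 0 was ATRNL1 and SLC7A10, which lie on opposite sides in Ya, at r = 0.56 (exact permutation p = 0.173, adjusted p = 0.671) and rho = 0.41 (exact permutation p = 0.245). It rested on Ya 3 and Og 3, since r was 0.02 without them. Over the 12 birds outside Ya, 2 pairs had an unadjusted p under 0.05, and the smallest adjusted p was 0.324. SLC7A10 and ASPA had r = -0.82 there (exact permutation p = 0.0116), against -0.25 over all 15 birds (exact permutation p = 0.376). SIDT1 and ATRNL1, both higher in Ya, had r = 0.66 there (exact permutation p = 0.0316), against 0.44 over all 15 (exact permutation p = 0.192). With any single array left out, the smallest adjusted p among the 28 pairs was 0.162. Between each member and the 18307 other features, the middle 90% of r ran from -0.57 to 0.53 for ASPA, -0.54 to 0.59 for CORO2A, -0.49 to 0.48 for ATRNL1 and -0.51 to 0.55 for SLC7A10. The r of ASPA with CORO2A and that of ATRNL1 with SLC7A10 lay outside these ranges, as the outermost of 28 pairs.

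**Figure D3:**
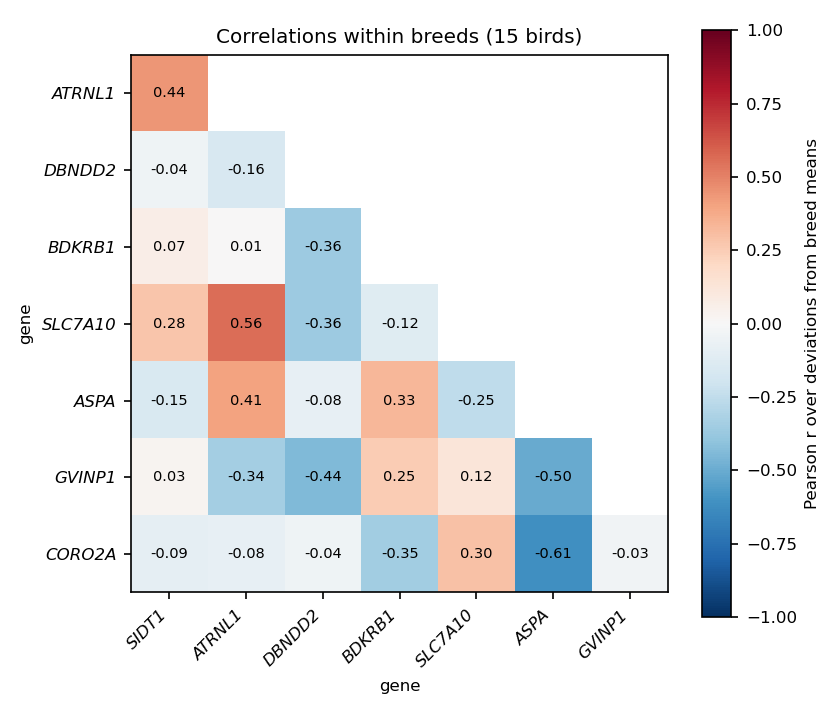
Pearson's r of deviations from breed means over 15 birds, with the 8 genes on both axes and each of the 28 pairs as a cell coloured by sign and size. The cells range from -0.61 for ASPA and CORO2A to 0.56 for ATRNL1 and SLC7A10, and 0 of 28 passed.

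Relatives and partners of the members were read from 10 lists of 128 measured genes, grouped by the member they belong to. Against the mean of the other breeds, 1 of the 128 rose in Ya, 2 fell and 16 had an unadjusted p under 0.05, where 1.0% of all features passed (0.503% upward and 0.497% downward) and 12.7% had such a p. The median difference of the 128 genes was -0.06, and that of all features was 0.00. GOT2 was the gene that rose, and DDX60 and GBP4L were those that fell.

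**Figure D4:**
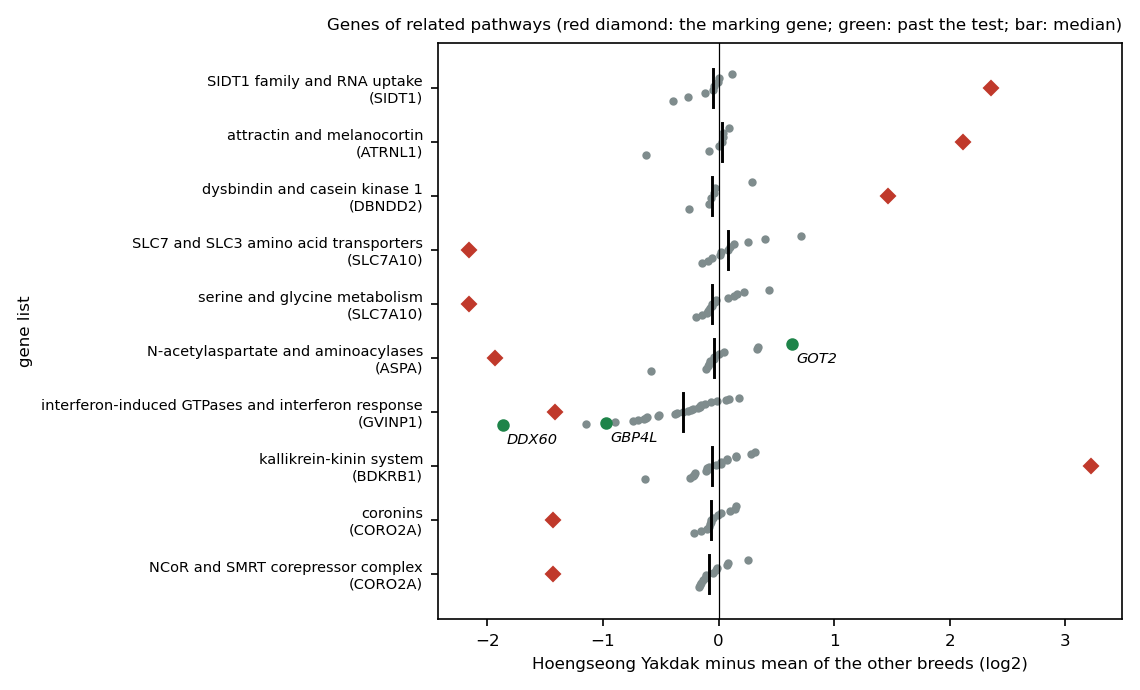
Difference of Ya from the mean of the other 4 breeds (log2, horizontal axis) for each measured gene of the 10 lists (rows); points are genes, labelled green points passed limma's test, vertical bars are list medians and red diamonds are the members. GOT2 lies at 0.63, GBP4L at -0.97 and DDX60 at -1.87, and most other genes lie close to 0.

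In the SIDT1 list of 8 genes for RNA uptake and sensing, 0 passed in either direction. Its closest relative SIDT2, a lysosomal member of the same family, read 9.04 to 9.26 in Ya birds and 8.78 to 9.38 in the other birds, a difference of 0.11 ± 0.11 (limma adjusted p = 0.758). The largest difference was that of TLR3, the endosomal sensor of double-stranded RNA, at -0.39 ± 0.25 (adjusted p = 0.583). In the ATRNL1 list of 7 attractin and melanocortin genes, 0 passed, and ATRN itself differed by 0.03 ± 0.09 (adjusted p = 0.939). MC5R, a melanocortin receptor, differed most, at -0.63 ± 0.42 (adjusted p = 0.596), with Ya birds spread between 7.15 and 9.31.

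The DBNDD2 list held 6 measured genes of the dysbindin and casein kinase 1 families, and 0 passed. CSNK1D, a casein kinase 1 isoform, differed by -0.04 ± 0.09 (limma adjusted p = 0.925), and BLOC1S6, a partner of dysbindin in the BLOC1 complex that builds lysosome-related organelles, by 0.29 ± 0.11 (adjusted p = 0.262). Among 18 genes of the kallikrein-kinin system around BDKRB1, 0 passed. KNG1, which encodes kininogen, the source of the kinins, read 12.62 to 12.88 in Ya birds against 12.74 to 13.16 in the others (difference -0.22 ± 0.08, adjusted p = 0.267). BDKRB2, the constitutive kinin receptor and the next gene to BDKRB1 on the chromosome, read 3.05 to 3.84 in Ya birds against 2.56 to 3.76 (difference 0.32 ± 0.18, adjusted p = 0.519). The peptidase DPP4 differed most in this list, at -0.63 ± 0.36 (adjusted p = 0.509).

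Of 11 transporters of the SLC7 and SLC3 families, to which SLC7A10 belongs, 0 passed. SLC7A7, a transporter of cationic and neutral amino acids, read 6.84 to 7.70 in Ya birds and 5.17 to 7.54 in the others, a difference of 0.71 ± 0.31 (limma adjusted p = 0.345). Of 15 genes of serine and glycine metabolism, 0 passed. SRR, which makes D-serine, differed by -0.10 ± 0.08 (adjusted p = 0.662), and SLC38A2, a carrier of small neutral amino acids, by 0.44 ± 0.19 (adjusted p = 0.366).

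In the ASPA list of 12 genes of N-acetylaspartate, aspartate and acylase metabolism, 1 passed. GOT2, the mitochondrial aspartate aminotransferase, read 10.79 to 10.93 in Ya birds and 9.91 to 10.81 in the others, with a median of 10.19. It rose by 0.63 ± 0.12 (limma adjusted p = 0.0302) and overlapped the highest other bird. The call was lost without Ya 1 (adjusted p = 0.0767), Ya 2 (0.138) or Ya 3 (0.125). ACSS2, which turns acetate into acetyl-CoA, differed by -0.58 ± 0.28 (adjusted p = 0.417).

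Around GVINP1, 27 interferon-response genes were measured, and 0 rose and 2 fell. By limma's test 7 of the 27 had an unadjusted p under 0.05, where 12.7% of all features did. DDX60, an RNA helicase of the antiviral response, read 6.81 to 8.22 in Ya birds and 7.66 to 11.23 in the others, with a median of 9.33. Its difference was -1.87 ± 0.37 (limma adjusted p = 0.0331). GBP4L, a guanylate-binding GTPase, read 7.18 to 7.78 in Ya birds and 7.61 to 9.18 in the others, a difference of -0.97 ± 0.21 (adjusted p = 0.0469). Of the 27 differences, 3 were above 0, and the median was -0.31. In both genes the highest Ya bird overlapped the lowest of the others. Without 1 array, DDX60 lost its call in 6 of 15 fits, among them those without Ya 2 (adjusted p = 0.202) and Ya 3 (0.137). GBP4L lost its call in 13 of 15 such fits, among them each without a Ya bird (up to 0.182).

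The mean log2 level of the 27 interferon genes was 7.42 to 7.49 in Ya birds and 7.13 to 7.53 in Og birds. It was 7.77 to 9.14 in Bl birds, 7.95 to 8.42 in Hw birds and 7.50 to 7.64 in WL birds. Ya birds thus lay within the Og range on the list as a whole. GVINP1 separated them from Og without overlap, but it was listed for its level in Ya. The contrast between GVINP1 and the list therefore follows from that choice. Within breeds, GVINP1 did not follow the list mean, in a correlation added after the data were seen. Over 15 birds r was -0.05 (exact permutation p = 0.898) and rho -0.16 (exact permutation p = 0.662). Without Hw 1 and Hw 2, r was -0.03.

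Marker lists of immune cells lay on both sides of 0 in the Ya difference from the mean of the other breeds. The median difference of all features was -0.0001. Of 8 heterophil and thrombocyte markers, 0 passed and 6 were above 0, with a median difference of 0.09. Of 6 macrophage markers, 0 passed and 2 were above 0, with a median difference of -0.04. Of 13 measured T and NK cell markers, 1 fell in Ya (UBASH3A, -0.55 ± 0.12, limma adjusted p = 0.0420), 3 were above 0, and the median difference was -0.24. Their mean level was 5.63 to 6.06 in Ya birds and 5.89 to 6.40 in the others. By limma's test 4 of the 13 had an unadjusted p under 0.05, where 12.7% of all features did. Of 7 B cell markers, 0 passed and 0 were above 0, with a mean level of 5.79 to 6.0 in Ya birds and 5.98 to 6.38 in the others. JCHAIN, the joining chain of secreted antibodies, differed most, at -0.98 ± 0.27 (adjusted p = 0.112). The UBASH3A call was lost in 12 of 15 fits without 1 array, the largest adjusted p being 0.242 without Ya 2. With Ya 3 as the sole Ya bird its difference was -0.29 (adjusted p = 0.723). The part of lymphocytes in the GVINP1 difference was not tested. In whole liver, fewer cells of a type and less RNA per cell cannot be told apart. Over 13 marker lists of liver and possible contaminating tissues, 1 of 103 measured genes passed, where 1.0% of all features did. Bile duct markers had the highest median difference of the 13 lists, 0.22, with 4 of 6 above 0. Of these 6, 0 passed limma's test and 2 had an unadjusted p under 0.05, where 12.7% of all features did.

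The CORO2A lists held 13 genes of the coronins and their actin partners and 12 of the NCoR and SMRT corepressor complex, and 0 of both passed. CORO2B, the nearest relative, read 4.56 to 4.65 in Ya birds and 4.08 to 4.94 in the others (difference 0.10 ± 0.12, limma adjusted p = 0.814). ARPC3, a subunit of the actin-nucleating Arp2/3 complex, differed by -0.22 ± 0.11 (adjusted p = 0.456). HDAC3, the deacetylase of the corepressor complex, differed by 0.26 ± 0.09 (adjusted p = 0.224), and its scaffold NCOR1 by -0.17 ± 0.10 (adjusted p = 0.517).

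Genes beside the members passed limma's test in Ya at about the rate of all features. For each member the 5 nearest measured named genes on either side in the RefSeq order gave 80 neighbours. Of these, 1 passed, where 1.0% of all features did. An unadjusted p under 0.05 was found for 12 of the 80 and for 12.7% of all features. Their differences ran from -0.52 to 0.63, with a median of 0.05. CAAP1, an inhibitor of caspase activity near CORO2A, was the one that passed, and it rose by 0.63 ± 0.11 (limma adjusted p = 0.0190), the opposite direction to CORO2A. It read 7.70 to 7.92 in Ya birds, above the 6.98 to 7.53 of the others, and the call was lost without Ya 2 (adjusted p = 0.117) or Ya 3 (0.102).

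Of the genes around the other members, the furthest from 0 was VRK1, a kinase near BDKRB1, at -0.52 ± 0.16 (limma adjusted p = 0.148). Near DBNDD2 it was SDC4, a cell-surface proteoglycan, at -0.44 ± 0.15 (adjusted p = 0.189), and near GVINP1 it was C3H8ORF80 at -0.45 ± 0.23 (adjusted p = 0.454). The exporter SLC47A1 near ASPA differed by 0.43 ± 0.25 (adjusted p = 0.519), RHPN2 near SLC7A10 by -0.35 ± 0.17 (adjusted p = 0.425), the receptor GFRA1 beside ATRNL1 by 0.31 ± 0.13 (adjusted p = 0.322) and the phosphatase DUSP12 near SIDT1 by 0.30 ± 0.09 (adjusted p = 0.166). All 7 were smaller than the differences of the members themselves. The members were listed for their levels in Ya, so this contrast follows from the list and is not a result about the regions.

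**Figure D5:**
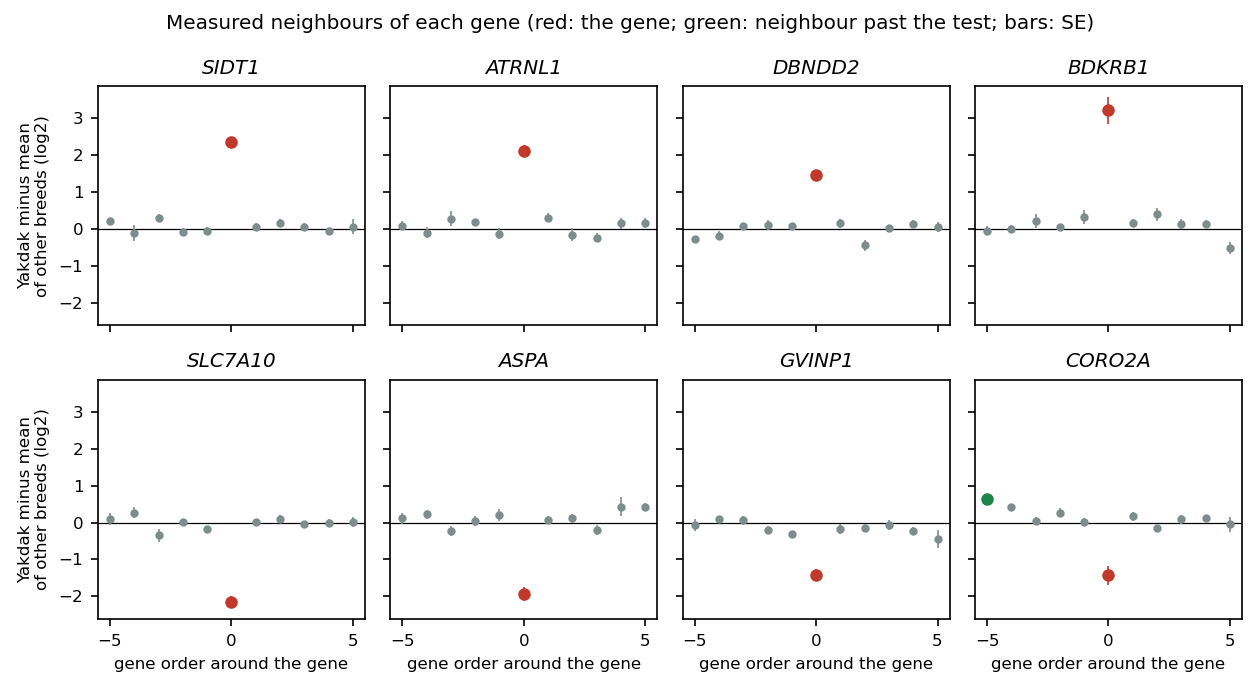
Difference of Ya from the mean of the other 4 breeds (log2, vertical axis) for each member at 0 on the horizontal axis and for the 5 measured genes on either side, by gene order; bars are SE, and the green point, CAAP1, passed the test. Members lie between -2.16 and 3.22, and their 80 neighbours between -0.52 and 0.63, a contrast that follows from how the members were listed.

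The genes most like each member over the 15 arrays, among 11186 searched, were ranked by Pearson's r, which is given as a description, since the members were listed for their levels in these birds. SEMA5A, a guidance cue of the semaphorin family, had r = 0.93 with SIDT1, 0.91 with ATRNL1 and 0.89 with DBNDD2. The tubulin-modifying enzyme TTLL7 was also among the 3 nearest to each of these members, at 0.86, 0.90 and 0.88. CDH1, the cadherin of epithelial junctions, came near SIDT1 (0.87), ALDH4A1, an enzyme of proline breakdown, near ATRNL1 (0.91) and the RNA-binding protein BICC1 near DBNDD2 (0.91). SEMA5A averaged 7.91 in Ya livers and 7.13 in those of the other breeds, so its difference was smaller than that of any of these members.

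For BDKRB1 the nearest genes were QPCT (r = 0.90), FAM135A (0.85) and PLA2G12B (0.85). QPCT, which forms the pyroglutamate end of peptide hormones, had r = 0.88 over the deviations from breed means. SLC7A10 was nearest to GPX3, a secreted glutathione peroxidase, at r = 0.91 over the arrays and 0.91 within breeds, followed by RPLP1 (0.86) and BPHL (0.86). The deviations are part of the array values that ranked QPCT and GPX3, so their r within breeds is not separate from that ranking. ASPA was nearest to MGST1 (0.88), GM2A (0.88) and POLR2C (0.87), GVINP1 to GPATCH2 (0.85), RBM34 (0.84) and NCL (0.84), and CORO2A to GNRH1, FAM20C and RILP (0.83 each). None of these genes passed the rule against every breed.

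Over deviations from breed means alone, other genes were nearest. They were PANX2 for SIDT1 (r = 0.90), SLC5A1 for ATRNL1 (0.87), GAS7 for DBNDD2 (0.92), MORN3 for BDKRB1 (0.94), ERI2 for SLC7A10 (0.97), SELENOT for ASPA (0.93), KCNK13 for GVINP1 (0.85) and NT5M for CORO2A (0.91). These are the highest of 11186 values over 15 birds that share breeds, and they carry no test. None of the 8 was among the 3 nearest genes over the arrays.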

How the data were processed

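Values deposited by the authors were log2 expression values per feature, which the submitters' processing notes credit to RMA (robust multi-array averaging) and Affymetrix Expression Console 1.3.1. No further normalization was applied. The platform annotation gave 1 symbol for 12300 features, several for 256 and none for 5752, and the feature with the highest mean stood for a gene. Probe positions, and sequence differences between breeds under the probes, were not checked, which could shift a breed's signal.

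The R package limma 3.58.1 (R 4.3.3) fitted breed means to the 15 arrays (10 residual degrees of freedom plus 3.89 from moderation), with Benjamini-Hochberg adjustment over 18308 features, a threshold of 0.05 and two-sided tests. Exact permutation of 3 against 3 birds reaches p = 0.1 at best. Correlations used Python 3.11.15 with exact within-breed permutation. The fit was tested on simulated data.

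The 8 genes and the lists were chosen with earlier results of these data known. Genes named were the members, the 3 nearest over arrays and the nearest within breeds, Ya-specific genes, list genes that passed or differed most, and neighbours that passed or differed most. A few relatives (SIDT2, ATRN, CSNK1D, KNG1, BDKRB2, SRR, ACSS2, CORO2B, NCOR1), JCHAIN, GM2A and ACER2 were added after their values were seen. The correlation of GVINP1 with the interferon list mean was also added after the data were seen. Alternatives were other normalizations, array weights, variance moderation, a filter on low means, the replicate number as a block, each array left out, and, chosen after seeing the data, Ya 1 and Ya 2 left out together. The arrays' number limits the precision.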

Additional observations from a re-analysis of the deposited data

How the results depend on the processing

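With median centring and with a further quantile normalization, the Ya birds stayed outside the other 12 in all 8 genes. The genes were listed for that separation, and leaving out an array cannot undo it. No gene difference that was followed through the alternatives changed sign. Within-breed correlations did. Of the 28 pairs, r changed sign in 0 with median centring and 3 with quantile normalization. It changed sign in 4 with replicate means removed, and in 9 without the 2 arrays farthest from the first member's median. Counts were also less stable. With array weights, the features past every Ya comparison numbered 16 (9 in the reported fit), those differing among the other 4 breeds 244 (132), members among those 1 (SIDT1, against 0), Ya against WL 163 (101) and Ya against Hw 458 (267). With the dimmest part of the features left out, 15 features passed every Ya comparison and 1 member (SIDT1) the F test.

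Without Ya 1 and Ya 2 together, chosen after seeing the data, limma's calls fell to 20 for Ya against the mean of the others (183 reported), 10 against WL, 11 against Og (58), 6 against Bl (54) and 39 against Hw. Features past every Ya comparison numbered 4, of which 3 were members. No share of all features at an unadjusted p was computed for this fit. Its counts for member differences among the other breeds, list genes and neighbours are therefore left out. The lone Ya bird is assumed to vary like the other breeds, and this fit has fewer samples.

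With each array left out in turn, calls ran from 41 (without Ya 2) to 184 for Ya against the mean, 24 to 112 against WL, 26 to 63 against Og, 20 to 86 against Bl and 130 to 295 against Hw. Features past every Ya comparison ran from 6 to 16 (without Ya 3), with 4 to 7 members among them, and differences among the other breeds from 64 (without Hw 2) to 163, with 0 members. Member pairwise differences ran from 0 to 1, list genes from 0 to 3 and neighbours from 0 to 2. Correlations past the test stayed at 0.

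Deviations of same-numbered birds of different breeds correlated at r of -0.09 to 0.24 (median 0.039), over 0.1 in 8 of 30 pairs. The median r was -0.015 for differently numbered birds, and 8 of 15 arrays were closest to their own number, a count not set against chance. Whether the replicate numbers pair the birds was not tested. With the replicate number as a block, 191 features passed for Ya against the mean. Of the named genes only GBP4L lost its call there (limma adjusted p = 0.0678). DDX60 lost its call with trended, robust moderation (0.0502), and GBP4L (0.0520) and UBASH3A (0.0601) with quantile normalization. Other features of a member could not be tried, since each has 1.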

Other observations

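Several named genes outside the 8 also had Ya birds clear of all others, and they were picked after their values were seen. Their gaps were smaller than those of the members other than CORO2A, whose gap GM2A, ACER2, TP53I3 and DCDC2 exceeded. GM2A read 8.74 to 8.90 in Ya birds and 9.39 to 10.62 in the others, TP53I3 4.53 to 4.73 against 5.13 to 6.59, and TUBA8B 2.36 to 2.71 against 3.02 to 3.95. ACER2 read 6.11 to 6.52 in Ya birds and 4.82 to 5.66 in the others, DCDC2 7.62 to 8.68 against 6.01 to 7.26, and NRP1, a receptor of semaphorins and vascular growth factors, 9.45 to 10.33 against 8.25 to 9.15. The 2 features without a gene symbol that passed every Ya comparison were also clear. The first read 8.15 to 8.26 in Ya birds and 9.67 to 10.58 in the others, a wider gap than that of SLC7A10. The second read 9.43 to 9.75 against 10.08 to 10.60.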
